A study of Mus musculus with 6 samples.

Results

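The genes described here are 10 genes of the stress response that runs through the transcription factor ATF4: *Atf4*, *Atf5*, *Ddit3*, *Trib3*, *Nupr1*, *Asns*, *Chac1*, *Ddit4*, *Sesn2* and *Vldlr*. They were chosen by name with the KO and WT values of these libraries in view, so they were selected on measured values, and their own levels and fold changes are a description without a test. They are 10 of the 46983 genes listed in the expression table, and each was found there through its Ensembl identifier and GENCODE symbol.

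In the integrated stress response, kinases that sense amino acid shortage, unfolded proteins in the endoplasmic reticulum, heme shortage or double-stranded RNA phosphorylate the translation factor eIF2α. General translation then slows while translation of *Atf4* mRNA increases, and ATF4 protein switches on genes for amino acid supply, tRNA charging and stress control. The level of *Atf4* mRNA is therefore not the level of ATF4 protein.

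Bulk RNA-seq was available for 6 libraries of mouse splenic B cells, 3 labelled WT and 3 labelled KO. *Hif1a* encodes the oxygen-regulated subunit of the transcription factor HIF-1, and the comparison asks what its loss changes in B cells that switch to IgA. All cultures were kept until day 3 with 5 μg/ml of LPS, to which TGF-β, BAFF and IL-5 were added, each at 10 ng/ml. RNA was extracted with an RNeasy kit and made into libraries with a SMARTER kit. In KO mice both alleles of *Hif1a* were floxed, and cre recombinase was expressed from the B-lineage gene *Mb1* (*Cd79a*). WT mice were littermates of either *Hif1a* f/+ genotype with cre or *Hif1a* f/f genotype without cre, and no label tells these genotypes apart. The methods of the study sort follicular B cells (CD21int CD23+) from the spleen ahead of such cultures, whereas the labels say only that these were splenic B cells. The mice were on a C57BL/6 background, and their age is not given for these cultures in the sources used here. No source says that each library came from a separate animal, so p-values measure only the spread between these libraries, which may be technical.

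Values are FPKM, which scale the reads of a gene to its length and to the depth of the library, in the order of replicates 1, 2 and 3 of each group. The reads behind the FPKM numbered 37222477, 30955753 and 25973237 in WT and 25030210, 34356000 and 29869848 in KO. Fold changes are KO minus WT on log2(FPKM + 1), a scale that understates the change of genes with low values. Coordinates are GRCm38 (mm10) from GENCODE.

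The WT libraries did not lie together. The genes tested were the 13312 whose FPKM averaged 0.5 or more. Of these, 374 differed by at least 1 on the log2(FPKM + 1) scale between WT replicates 1 and 2, and 373 did between WT replicates 1 and 3. The number was 117 between WT replicates 2 and 3, and WT replicate 1 differed that much from KO replicates 1, 2 and 3 at 98, 130 and 86 genes. WT replicate 2 differed from them at 332, 304 and 464 genes, and WT replicate 3 at 328, 285 and 482. Among the KO libraries, 145 genes differed that much between replicates 1 and 2, 114 between 1 and 3 and 178 between 2 and 3. WT replicate 1 thus differed at fewer genes from each KO library than from either other WT library. Whether the label or genotype of this or any other library is right cannot be settled from FPKM. Of the 16 HIF-1 targets tested, all outside glycolysis, WT replicate 1 lay within the KO range in 9. The share of all genes tested with WT replicate 1 in that range was not taken, so nothing is read from this count. Every KO library lay below every WT library in 3 of the 16, among these *Mif* and *P4ha1*, the latter named after its values were seen. Over all genes tested, 6.03% had KO values all below the WT values. The list was chosen with earlier results of these data known, and the difference from this share was not tested. In *Ankrd37* KO replicate 2 lay within the WT range. Fold changes are given with and without WT replicate 1, while FPKM, marker sums and likeness of profiles are given for all 6 libraries.

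KO replicate 2 also stood apart. The Y-linked gene *Ddx3y* had an FPKM of 43.3 there and at most 0.00945 in the other libraries. *Eif2s3y*, another Y-linked gene, had 73.2 there and at most 0.0790 elsewhere. The part of this difference in the results was not tested.

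The targeted gene, *Hif1a* (ENSMUSG00000021109, chr12:73901375-73947530), had an FPKM of 36.5, 49.8 and 45.8 in WT and 46.5, 45.6 and 52.8 in KO. The 2 groups overlapped, with a log2 fold change of 0.14 (SE 0.12) and of 0.01 without WT replicate 1. FPKM counts reads over the whole gene, so these values cannot check whether the floxed part was lost.

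With all 6 libraries, limma and a Benjamini-Hochberg adjustment called 0 of 13312 genes (0.0%) at an adjusted p under 0.05. The smallest adjusted p was 0.321, and 929 genes had an unadjusted p under 0.05. The voom form of limma on reads recovered from the FPKM also called 0 genes, with 832 at an unadjusted p under 0.05. Without WT replicate 1, limma called 1251 genes, 766 lower in KO (5.75%) and 485 higher in KO (3.64%). Leaving out any other library gave at most 1 call. WT replicate 1 was singled out by its values, which lay near those of KO, so values and calls without it are a description and support no difference between the genotypes.

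*Atf4* (ENSMUSG00000042406, chr15:80255184-80257541) encodes the transcription factor at the centre of the response. Its FPKM was 149, 229 and 233 in WT and 144, 133 and 136 in KO, the highest level among the 10 genes in every library. WT replicates 2 and 3 were high, and WT replicate 1 lay just above the KO libraries, so the groups did not overlap. The log2 fold change was -0.53 (SE 0.17) with all 6 libraries and -0.75 without WT replicate 1. In bulk RNA, fewer cells that express a gene and less of its RNA per cell cannot be told apart, and this holds for every value here.

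*Atf5* (ENSMUSG00000038539, chr7:44812256-44816658) encodes a bZIP factor related to ATF4, and its mRNA is also under translational control. It had an FPKM of 8.65, 16.2 and 15.2 in WT and 7.25, 9.42 and 9.66 in KO. Again WT replicates 2 and 3 were the highest libraries, and WT replicate 1 lay within the KO range. KO minus WT was -0.51 (SE 0.23) on the log2 scale, and -0.78 without WT replicate 1.

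*Ddit3* (ENSMUSG00000025408, chr10:127290774-127296288) encodes CHOP, a bZIP partner of C/EBP factors linked to cell death under lasting stress. Its FPKM was 23, 27 and 27 in WT and 17.2, 21.5 and 24.5 in KO. This was the smallest separation among the 10 genes, since WT replicates 2 and 3 lay only slightly above KO replicate 3 and WT replicate 1 lay within the KO range. The log2 fold change of -0.28 (SE 0.14) became -0.36 without WT replicate 1 and -0.15 without KO replicate 1.

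*Trib3* (ENSMUSG00000032715, chr2:152337422-152344032) encodes a pseudokinase that ATF4 induces and that acts back on ATF4. Its FPKM was 1.96, 20.5 and 18.9 in WT and 2.5, 2.29 and 2.5 in KO. WT replicate 1 was the lowest of all 6 libraries, whereas WT replicates 2 and 3 were far above the rest. The log2 fold change was -1.66 (SE 0.72), and -2.59 without WT replicate 1, the largest such value in size among the 10 genes.

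*Nupr1* (ENSMUSG00000030717, chr7:126623249-126630861) encodes a small stress-induced nuclear protein. It had an FPKM of 1.47, 10.2 and 8.59 in WT and 1.27, 0.828 and 0.914 in KO. The groups did not overlap, but WT replicate 1 was much closer to the KO libraries than to the other WT libraries. Its log2 fold change was -1.69 (SE 0.54), and -2.37 without WT replicate 1.

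*Asns* (ENSMUSG00000029752, chr6:7675169-7693254) encodes asparagine synthetase, a classical target of ATF4. Its FPKM was 27.5, 142 and 142 in WT and 28.4, 26.5 and 27 in KO. WT replicate 1 lay within the narrow KO range, so the SD was 66.2 around a WT mean of 103.9 and 0.985 around a KO mean of 27.3 (n = 3 each). This gave a log2 fold change of -1.56 (SE 0.59), and of -2.34 without WT replicate 1.

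*Chac1* (ENSMUSG00000027313, chr2:119351229-119354381) encodes an enzyme that breaks down glutathione. Its FPKM was 2.28, 12 and 12.9 in WT and 2.76, 2.04 and 2.68 in KO. WT replicate 1 lay within the KO range. The log2 fold change of -1.27 (SE 0.53) became -1.95 without WT replicate 1.

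*Ddit4* (ENSMUSG00000020108, chr10:59949669-59951834) and *Sesn2* (ENSMUSG00000028893, chr4:132492032-132510501) encode REDD1 and sestrin 2, inhibitors of the growth kinase complex mTORC1. *Ddit4*, which is also known as a HIF-1 target, had an FPKM of 82.1, 126 and 116 in WT and 69.8, 75.6 and 76.6 in KO. *Sesn2* had an FPKM of 11, 32.5 and 30 in WT and 10.4, 10.6 and 10.2 in KO. In both genes the KO libraries lay below every WT library, and in *Sesn2* WT replicate 1 exceeded the highest KO library only slightly. The log2 fold change was -0.52 (SE 0.15) for *Ddit4* and -1.02 (SE 0.37) for *Sesn2*, and without WT replicate 1 these were -0.70 and -1.50.

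*Vldlr* (ENSMUSG00000024924, chr19:27216484-27254231) encodes a receptor for very low density lipoprotein. It had an FPKM of 0.258, 0.838 and 0.826 in WT and 0.294, 0.261 and 0.225 in KO. These values correspond to 30, 81 and 67 reads in WT and 23, 28 and 21 reads in KO, as the smallest whole numbers of reads that give them. Its mean of 0.451 was under the filter of 0.5, so it alone of the 10 was not among the genes tested. WT replicate 1 lay within the KO range, and the log2 fold change was -0.36, or -0.54 without WT replicate 1. The value of this low gene depended on the scale, at -0.92 with a pseudocount of 0.1 and -1.04 with voom.

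**Figure D1:**
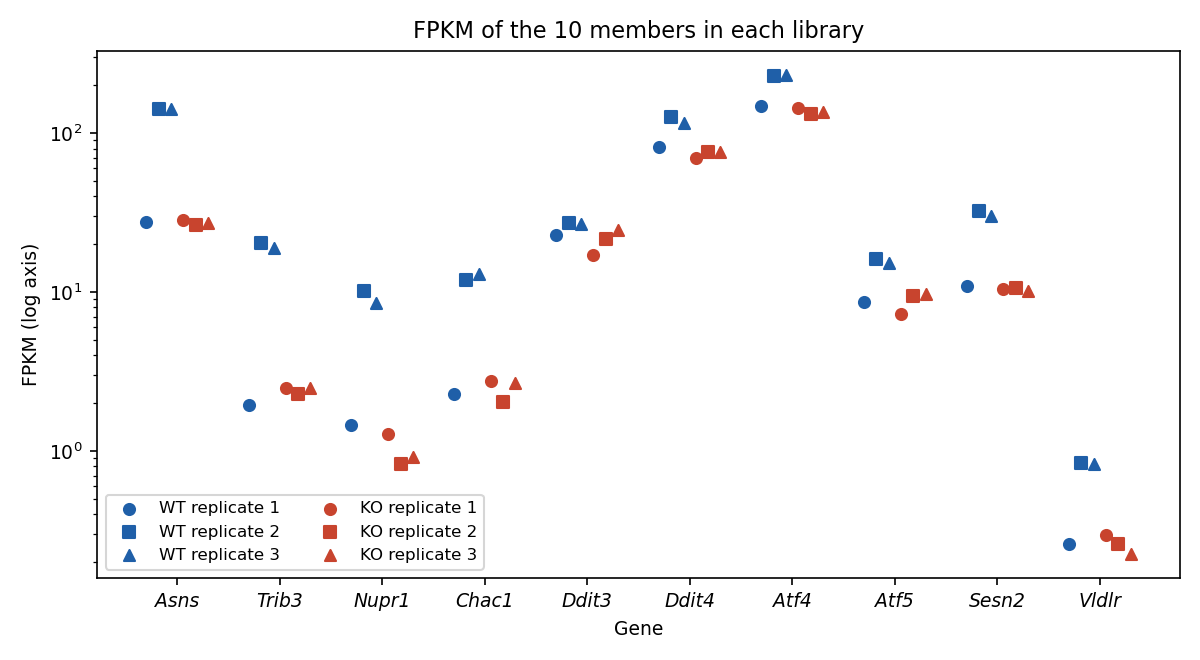
FPKM (log axis) of the 10 genes, with 1 point per library, blue for WT and red for KO, and marker shapes for the replicate number. WT replicates 2 and 3 are the 2 highest libraries for all 10 genes, and WT replicate 1 lies among or close to the KO libraries.

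In all 10 genes, WT replicates 2 and 3 were the 2 highest libraries. WT replicate 1 lay within the KO range in 5 of them, above every KO library in 4 and below every KO library in 1. In 4 of the 10 genes every KO value was below every WT value (*Atf4*, *Nupr1*, *Ddit4* and *Sesn2*), and in 0 of them every KO value was above. Over all genes tested, 6.03% had KO values all below and 4.06% all above the WT values. Because the genes were selected on this contrast, nothing is read from these counts.

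The median log2 fold change of the 10 genes was -0.78, and -1.14 without WT replicate 1. That of all genes tested was -0.03 and -0.05. WT replicates 1 and 2 differed by at least 1 on the log2 scale in 5 of the 10 genes, while WT replicates 2 and 3 did so in 0. None of the 10 genes differed by that much between WT replicate 1 and any KO library.

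**Figure D2:**
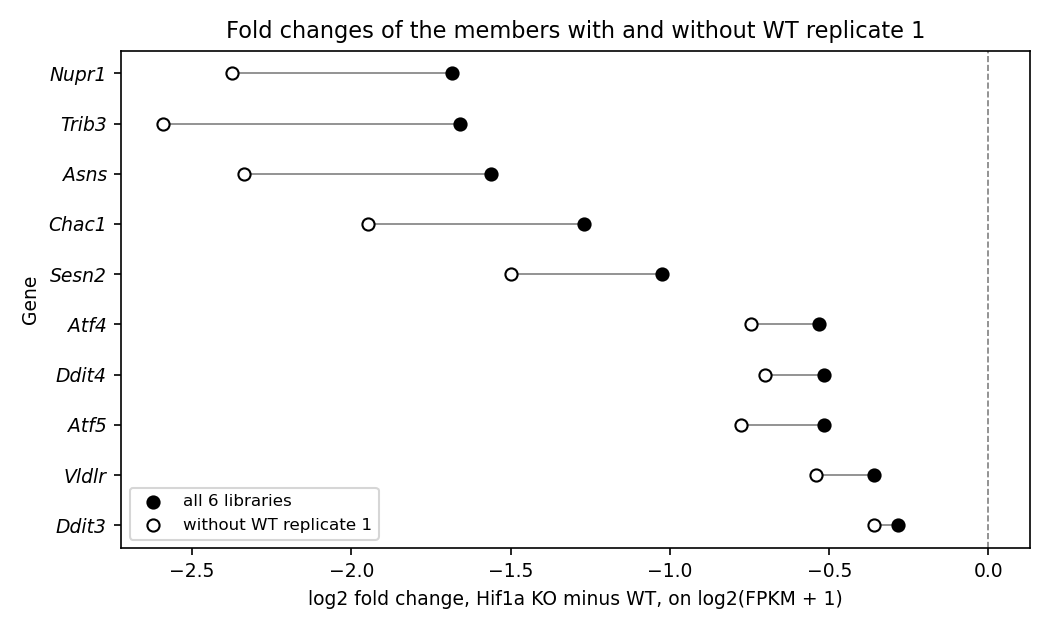
Log2 fold change of each of the 10 genes, KO minus WT on log2(FPKM + 1), with all 6 libraries (filled) and without WT replicate 1 (open). All values lie below 0, from -1.69 to -0.28 with all libraries, and leaving out WT replicate 1 moves each further from 0.

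The promoters of the 10 genes were searched for the letters TGATGNAA, the core of the C/EBP-ATF response element, and ACGTG, the core of the hypoxia response element, on both strands. All 10 had an entry in the RefSeq promoter table (GRCm38.p6), with 12 promoters of 300 bases in all. TGATGNAA was found for 5 genes, *Asns*, *Trib3*, *Nupr1*, *Chac1* and *Vldlr*, and 3.97% of the 32851 promoters in the table held it. ACGTG was found for 4 genes, *Asns*, *Nupr1*, *Ddit3* and *Ddit4*, and 19.6% of all promoters held it. The match of *Trib3* to TGATGNAA and that of *Ddit3* to ACGTG lay after the RefSeq start. A match is a description of the letters and says nothing of binding.

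The 250 bases before the RefSeq start are shown for the 4 genes with TGATGNAA there, to compare the letters of the match and those around it. WT replicates 2 and 3 were highest in all 10 genes, with or without a match there. The stretches are written 5′ to 3′ on the strand of the gene, at chr6:7693210-7693459 (minus strand) for *Asns*, chr7:126625471-126625720 (minus strand) for *Nupr1*, chr2:119350992-119351241 (plus strand) for *Chac1* and chr19:27216770-27217019 (plus strand) for *Vldlr*, and capitals mark both motifs.
Asns: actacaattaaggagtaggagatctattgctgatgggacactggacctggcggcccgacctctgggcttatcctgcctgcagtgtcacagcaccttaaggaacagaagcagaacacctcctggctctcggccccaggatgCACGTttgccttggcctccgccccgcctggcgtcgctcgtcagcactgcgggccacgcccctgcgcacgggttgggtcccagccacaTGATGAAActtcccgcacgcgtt
Nupr1: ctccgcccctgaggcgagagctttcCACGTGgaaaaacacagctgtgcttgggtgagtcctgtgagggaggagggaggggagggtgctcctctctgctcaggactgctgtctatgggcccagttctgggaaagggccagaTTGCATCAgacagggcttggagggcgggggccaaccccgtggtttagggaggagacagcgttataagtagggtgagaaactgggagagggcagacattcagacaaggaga
Chac1: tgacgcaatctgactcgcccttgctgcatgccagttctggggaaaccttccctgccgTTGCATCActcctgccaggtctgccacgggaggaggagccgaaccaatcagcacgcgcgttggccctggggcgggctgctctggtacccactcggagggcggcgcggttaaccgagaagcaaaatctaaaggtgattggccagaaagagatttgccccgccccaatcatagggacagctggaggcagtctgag
Vldlr: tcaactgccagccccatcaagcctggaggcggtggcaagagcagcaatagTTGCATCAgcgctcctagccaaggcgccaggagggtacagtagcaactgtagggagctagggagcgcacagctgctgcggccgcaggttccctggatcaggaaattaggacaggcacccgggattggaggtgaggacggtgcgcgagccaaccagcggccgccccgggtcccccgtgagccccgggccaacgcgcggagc
*Nupr1*, *Chac1* and *Vldlr* shared the same 8 letters, TTGCATCA, which match TGATGNAA on the opposite strand, whereas *Asns* had TGATGAAA on the strand of the gene. The match in *Asns* and the stretches of *Nupr1* and *Vldlr* lie inside the gene bounds that GENCODE gives, where other transcripts start further upstream. The ACGTG matches on the 2 strands of *Nupr1* overlap in the palindrome CACGTG.

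The other genes of the pathway were taken from 9 lists, which hold 138 genes, 130 of them tested. With all 6 libraries, limma with Benjamini-Hochberg adjustment called 0 genes in every list, and the smallest adjusted p was 0.626. *Ddit4l*, *Slc7a11*, *Stc2* and *Ier3* passed the filter only through WT libraries in which they were high, so they had to differ. Of the upstream list of eIF2α kinases and their regulators, 12 of 18 genes were lower and 6 higher in KO, with a median log2 fold change of -0.08. The median without WT replicate 1 was -0.10. This small median depended on the processing, at -0.14 without KO replicate 1, -0.03 without KO replicate 2 and -0.04 after median-ratio scaling.

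The kinase genes differed from each other. *Eif2ak4*, which encodes the amino acid sensor GCN2, had an FPKM of 13.4, 13.9 and 14.1 in WT and 14.6, 14.3 and 13.3 in KO, and the groups overlapped. *Eif2ak3*, which encodes the endoplasmic reticulum sensor PERK, had 48.3, 39.2 and 35.9 in WT and 48.6, 44.6 and 58.5 in KO, with WT replicates 2 and 3 the lowest. *Eif2ak1*, which encodes the heme-regulated kinase, had 39.9, 31.5 and 30.6 in WT and 38.2, 38.2 and 38.6 in KO, again with WT replicates 2 and 3 the lowest.

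*Eif2ak2*, which encodes the kinase PKR and is induced by interferon, had an FPKM of 26.9, 67.4 and 61.5 in WT and 31.2, 54.5 and 32.9 in KO. WT replicates 2 and 3 and KO replicate 2 were the high libraries. The most abundant gene of the list, *Eif2s3x*, encodes the X-linked γ subunit of eIF2 and had 146, 154 and 153 in WT and 149, 84.9 and 144 in KO. Only KO replicate 2 was low, the library in which the Y-linked copy *Eif2s3y* was at 73.2.

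*Eif2s2*, which encodes the β subunit of eIF2, had an FPKM of 69.2, 88.1 and 85.1 in WT and 68.9, 64 and 62 in KO. *Gcn1l1*, which encodes a coactivator of GCN2, had 52.8, 65 and 66.5 in WT and 57.7, 54.5 and 47.8 in KO. In both genes WT replicates 2 and 3 were the highest. *Eif2b2*, which encodes a subunit of the exchange factor eIF2B, had 71.9, 76.5 and 70.8 in WT and 69.9, 71.5 and 75.3 in KO, and the groups overlapped.

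Among partners of ATF4 and related bZIP factors, 9 of the 16 genes tested were lower and 7 higher in KO, with a median log2 fold change of -0.03, the same to 2 decimals as that of all genes. When WT replicate 1 was left out, the median was -0.06. Its sign also turned, to 0.02 after median-ratio scaling and 0.01 with the filter raised to 5 FPKM. *Atf3*, a stress-induced factor downstream of ATF4, had an FPKM of 1.06, 3.85 and 3.17 in WT and 0.789, 1.17 and 0.934 in KO and a log2 fold change of -0.82 (SE 0.31), or -1.20 without WT replicate 1. WT replicates 2 and 3 were highest and WT replicate 1 lay in the KO range.

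*Cebpd*, which encodes C/EBPδ, had an FPKM of 14.4, 8.05 and 8.45 in WT and 14.1, 14.7 and 19.3 in KO. *Xbp1*, which encodes a factor of the unfolded protein response and of plasma cells, had 363, 213 and 193 in WT and 334, 233 and 474 in KO. In both, WT replicates 2 and 3 were the lowest libraries. *Batf* (141, 132 and 134 in WT and 144, 129 and 164 in KO), *Atf1* (114, 106 and 105 in WT and 110.1, 112 and 105 in KO) and *Atf6b* (76.8, 70.8 and 67.3 in WT and 70.2, 70.3 and 84.2 in KO) had overlapping groups.

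Among relatives of the 10 genes, no gene passed the test with all 6 libraries. Of 9 tested, 2 were lower and 7 higher in KO, with a median log2 fold change of 0.14. Leaving out WT replicate 1 gave a median of 0.17, and raising the filter to 5 FPKM gave 0.23. Relative to the mean of each gene, the median of the list was 0.01, -0.12 and -0.09 in WT and 0.05, -0.10 and 0.24 in KO on the log2 scale, so KO replicate 2 was low beside WT replicates 2 and 3 and KO replicate 3 was the highest. *Ddit4l*, a relative of *Ddit4*, had an FPKM of 0.473, 2.16 and 1.73 in WT and 0.563, 0.41 and 0.147 in KO, with WT replicates 2 and 3 highest.

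The sestrin genes differed from each other. *Sesn1* had an FPKM of 33.7, 24.4 and 23.8 in WT and 32.1, 37.1 and 37.4 in KO, with WT replicates 2 and 3 lowest, the reverse of *Sesn2*. *Sesn3* had 32.8, 34.1 and 32.9 in WT and 36.6, 36.1 and 31.4 in KO, with overlapping groups. *Trib1* had 3.98, 2.09 and 1.95 in WT and 3.34, 2.42 and 5.7 in KO and *Trib2* had 33.1, 24.3 and 23.9 in WT and 30.2, 27.2 and 38.8 in KO, and in both genes WT replicates 2 and 3 were the lowest, the reverse of *Trib3*.

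*Chac2*, which encodes another glutathione-degrading enzyme, had an FPKM of 8.01, 5.76 and 6.73 in WT and 8.7, 6.81 and 10.2 in KO, and *Asnsd1*, whose product has an asparagine synthetase domain, had 3.02, 3.47 and 3.86 in WT and 4.07, 4.2 and 3.05 in KO. The groups overlapped in both. *Lrp8*, a relative of *Vldlr*, had 4.18, 6.01 and 5.2 in WT and 4.08, 4.07 and 3.68 in KO, with WT replicates 2 and 3 highest. *Nupr1l* was low at 0.746, 0.503 and 0.299 in WT and 0.178, 0.679 and 0.484 in KO and was not tested.

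The amino acid synthesis targets of ATF4 were lower in KO in 11 of the 11 genes tested, with a median log2 fold change of -0.78. None was called with all 6 libraries. The median without WT replicate 1 was -1.16. *Cth*, which encodes the enzyme that makes cysteine from cystathionine, had the largest fold change of the list (-2.15, SE 0.86, and -3.27 without WT replicate 1) and an FPKM of 5.54, 69.6 and 62.8 in WT and 6.26, 6.75 and 5.03 in KO.

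*Aldh1l2*, which encodes a mitochondrial folate enzyme, had an FPKM of 0.597, 9.59 and 10.7 in WT and 0.787, 0.696 and 0.66 in KO. Both genes had WT replicate 1 at the level of the KO libraries. *Phgdh*, which encodes the enzyme that opens serine synthesis, had 323, 555 and 545 in WT and 333, 280.4 and 316 in KO. *Psat1*, which encodes the next enzyme of that pathway, had 109, 227 and 239 in WT and 118, 109 and 99.3 in KO.

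The mitochondrial one-carbon enzymes followed. *Shmt2*, which encodes serine hydroxymethyltransferase, had an FPKM of 65.9, 143 and 151 in WT and 69.4, 64.2 and 61.8 in KO. *Mthfd2*, which encodes a methylene-tetrahydrofolate dehydrogenase, had 83.7, 218 and 225 in WT and 96.4, 85.7 and 79.6 in KO. In these genes too, WT replicates 2 and 3 were the highest libraries and WT replicate 1 was near the KO libraries.

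Of the amino acid transporter targets, 9 of 11 were lower and 2 higher in KO, with a median log2 fold change of -0.68. When WT replicate 1 was left out, the median was -1.01. With the filter raised to 5 FPKM and all 6 libraries kept, the median was -0.33. *Slc7a5*, which encodes the large neutral amino acid transporter LAT1, had an FPKM of 98.2, 234 and 241 in WT and 96, 87.8 and 90.8 in KO. Its heavy chain, encoded by *Slc3a2*, had 106, 213 and 211 in WT and 102, 104 and 108 in KO.

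*Slc6a9*, which encodes a glycine transporter, had an FPKM of 0.619, 6.28 and 7.38 in WT and 0.658, 0.652 and 0.463 in KO, and *Slc1a4*, which encodes a neutral amino acid transporter, had 1.8, 10.6 and 10.3 in WT and 2.08, 1.96 and 1.56 in KO. Both genes were far higher in WT replicates 2 and 3 than in the other libraries. The abundant glutamine transporter genes *Slc1a5* (230.1, 206 and 219.7 in WT and 225, 215 and 246 in KO) and *Slc38a2* (63.2, 75.8 and 79.1 in WT and 68.3, 74.8 and 67 in KO) showed little separation, with log2 fold changes of 0.07 and -0.05, or 0.10 and -0.14 without WT replicate 1.

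The aminoacyl-tRNA synthetase targets, which include the tRNA exporter gene *Xpot*, were lower in KO in 13 of 13 genes, with a median log2 fold change of -0.43. Leaving out WT replicate 1 gave a median of -0.62. *Gars*, for glycine, had an FPKM of 112, 218 and 220.1 in WT and 117, 112 and 105 in KO, and *Aars*, for alanine, had 98, 166 and 163 in WT and 99.9, 98.7 and 96.5 in KO. WT replicate 1 was near the KO libraries in both.

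*Cars*, for cysteine, had an FPKM of 52.7, 109 and 113 in WT and 56.8, 52.9 and 49.4 in KO and the largest fold change in size of this list (-0.70, SE 0.28, and -1.05 without WT replicate 1). *Sars*, for serine, had 99.2, 146 and 146 in WT and 97.6, 91.5 and 98.1 in KO, and *Iars*, for isoleucine, had 75.9, 139 and 143 in WT and 89.4, 79.2 and 71.9 in KO. All had WT replicates 2 and 3 as the highest libraries.

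The other stress targets were mixed, with 13 of 18 tested lower and 5 higher in KO and a median log2 fold change of -0.23. The median without WT replicate 1 was -0.36. *Hmox1*, which encodes heme oxygenase 1 and is also controlled by NRF2, had an FPKM of 4.77, 99.8 and 49.5 in WT and 5.56, 5.32 and 6.12 in KO and a log2 fold change of -2.21 (SE 0.95), which was -3.42 without WT replicate 1.

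*Cdkn1a*, which encodes the cell cycle inhibitor p21, had an FPKM of 21.6, 122 and 109.6 in WT and 26.7, 20.4 and 16.9 in KO. The autophagy genes *Sqstm1* (303, 431 and 416 in WT and 302, 262 and 356 in KO) and *Map1lc3b* (59.2, 52.4 and 50.8 in WT and 56.5, 54.5 and 65.2 in KO) differed from each other, since WT replicates 2 and 3 were highest in *Sqstm1* and lowest in *Map1lc3b*. *Mknk2*, which encodes a kinase of eIF4E, had 444, 466 and 462 in WT and 398, 465 and 429.5 in KO. *Herpud1*, which acts in degradation of endoplasmic reticulum proteins, had 123, 132 and 143 in WT and 119.5, 107 and 133 in KO, with overlapping groups.

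In the ATF6 and XBP1 branch of the unfolded protein response, no gene passed the test with all 6 libraries. Of 21 genes, 4 were lower and 17 higher in KO, at a median of 0.17 on the log2 scale. When WT replicate 1 was left out, the median was 0.30. It was 0.09 without WT replicate 3 and 0.07 without KO replicate 3. The median deviation of this list from each gene's mean was 0.10, -0.16 and -0.18 in WT and 0.09, -0.13 and 0.23 in KO on the log2 scale, so KO replicate 2 was low together with WT replicates 2 and 3.

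The chaperone genes *Hspa5* (655, 564 and 548 in WT and 662, 544 and 698 in KO) and *Hsp90b1* (419.5, 326 and 306 in WT and 417, 330.5 and 428 in KO) had overlapping groups. *Calr*, which encodes the chaperone calreticulin, had an FPKM of 1048, 991 and 1012 in WT and 1004, 928 and 1033 in KO, and *Pdia3*, which encodes a protein disulfide isomerase, had 583, 519.7 and 506 in WT and 579, 495 and 635 in KO. *Derl3*, which acts in the export of misfolded proteins, had 28.5, 12.2 and 9.14 in WT and 20.1, 18.6 and 34 in KO and the largest fold change in size of the list (0.62, SE 0.41, and 1.07 without WT replicate 1). In *Derl3* the groups overlapped.

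For the same median deviation, the 10 genes had -0.35, 0.80 and 0.71 in WT and -0.50, -0.41 and -0.41 in KO. The amino acid synthesis targets had -0.39, 0.74 and 0.81 in WT and -0.29, -0.43 and -0.49 in KO. All genes tested had -0.02, 0.03 and 0.04 in WT and -0.01, -0.01 and -0.03 in KO.

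**Figure D3:**
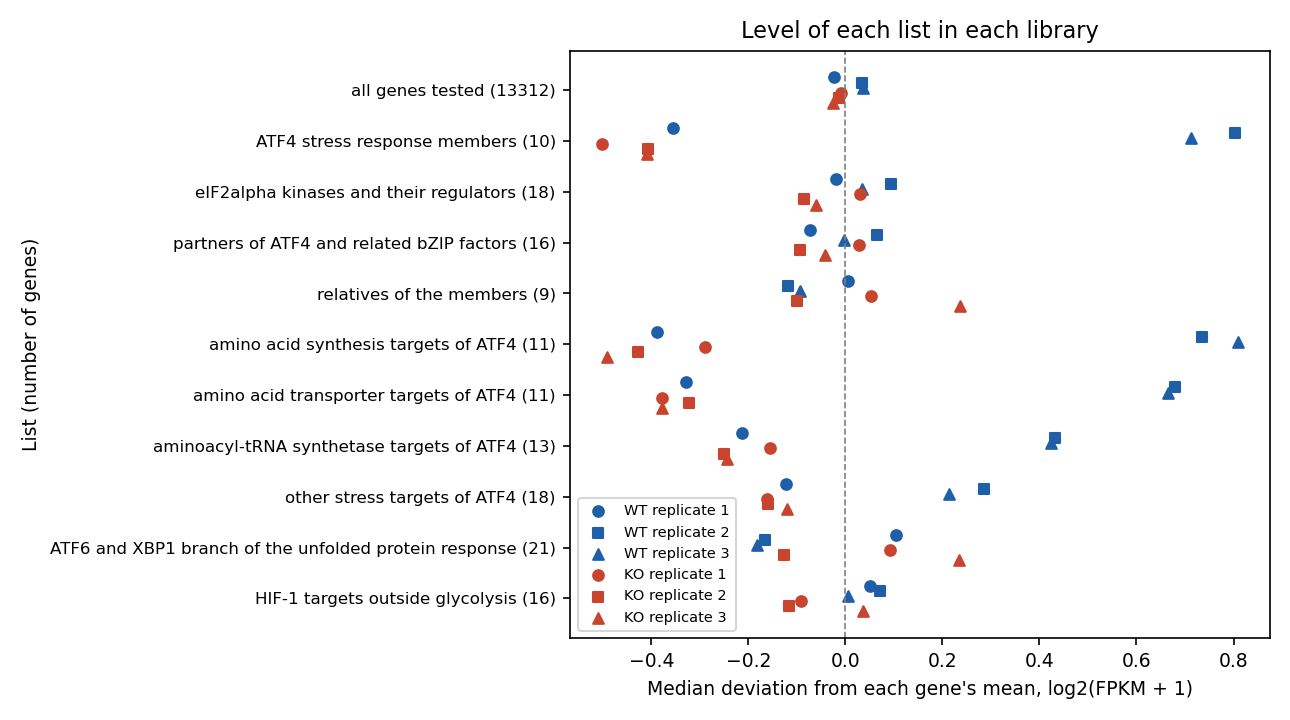
Median deviation of each list's genes from their own mean over the 6 libraries, on log2(FPKM + 1), with 1 point per library, blue for WT and red for KO, and the number of genes in brackets. In the 10 genes and the amino acid and tRNA lists, WT replicates 2 and 3 lie to the right and WT replicate 1 lies with the KO libraries.

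HIF-1 targets outside glycolysis were lower in KO in 10 of the 16 genes tested and higher in 6, with a median log2 fold change of -0.06 (-0.02 after median-ratio scaling). Leaving out WT replicate 1 gave a median of -0.08, without KO replicate 1 it was -0.03 and without KO replicate 3 it was -0.10. *Mif*, which encodes a cytokine, had an FPKM of 182, 229.6 and 237 in WT and 155, 151 and 154 in KO, with KO below every WT library and a difference of -0.48 on the log2 scale (SE 0.11), or -0.60 without WT replicate 1. KO was also below every WT library in *P4ha1*, which encodes a collagen prolyl hydroxylase, at 6.22, 6.16 and 5.33 in WT and 4.86, 4.35 and 5.01 in KO. *Vegfa*, which encodes an angiogenic factor and is also an ATF4 target, had 10.9, 24.9 and 23.9 in WT and 10.3, 9.41 and 11.4 in KO, with WT replicate 1 in the KO range.

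*Ankrd37* had an FPKM of 3.96, 2.09 and 3.15 in WT and 0.474, 3.68 and 0.397 in KO, so KO replicates 1 and 3 were low and KO replicate 2 was not. *Bnip3l*, a mitophagy gene, was between 56.9 and 69.3 in the 6 libraries. *Kdm3a*, which encodes a histone demethylase, had 42.4, 44.7 and 42.9 in WT and 40.9, 44.6 and 41.6 in KO, and *Plin2*, which encodes a lipid droplet protein, had 25.6, 22.1 and 19.6 in WT and 22.5, 22.1 and 29.7 in KO. The groups overlapped in these 3 genes.

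**Figure D4:**
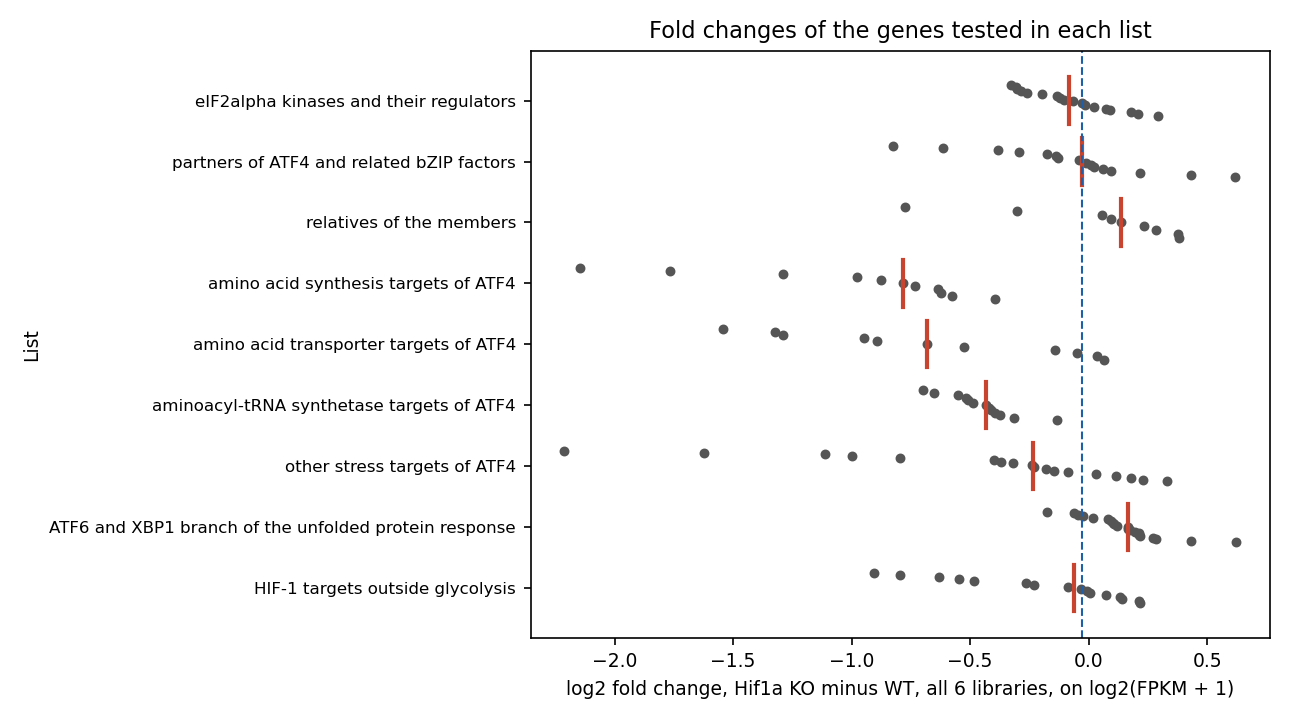
Log2 fold change, KO minus WT with all 6 libraries on log2(FPKM + 1), of each gene tested in the 9 lists (grey points), with the median of the list (red bar) and of all genes tested (dashed blue line, -0.03). The medians of the amino acid synthesis, transporter and tRNA synthetase lists are -0.78, -0.68 and -0.43.

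Outside the 10 genes, those whose profile over the 6 libraries was most like the mean profile of the 9 members tested were ranked by the root mean square difference on the log2 scale, as a description. They were *Pycr1* (0.0717), *Mir7015* (0.0741), *Eif4ebp1* (0.0783), *Slc7a5* (0.0796), *Cd70* (0.0806), *Stc2* (0.0934), *Inka2* (0.105), *I830077J02Rik* (0.120), *Mthfd2* (0.121) and *Mmp14* (0.122). *Pycr1*, *Eif4ebp1*, *Slc7a5*, *Stc2* and *Mthfd2* were also in the lists of ATF4 targets. Both the 10 genes and the lists were chosen with results of these data known, so nothing is read from this overlap.

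*Pycr1*, which encodes an enzyme of proline synthesis, had an FPKM of 6.15, 19.9 and 18 in WT and 5.95, 6.68 and 6.0 in KO. *Eif4ebp1*, which encodes a repressor of cap-dependent translation, had 25.5, 73.2 and 73 in WT and 21.8, 22.4 and 25.9 in KO. *Stc2*, which encodes the glycoprotein stanniocalcin 2, had 0.0857, 2.17 and 2.5 in WT and 0.106, 0.0929 and 0.249 in KO. WT replicate 1 was near the KO libraries in all 3.

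*Cd70*, which encodes a ligand of the TNF family, had an FPKM of 2.36, 7.87 and 7.64 in WT and 2.61, 2.21 and 2.19 in KO, and *Mmp14*, which encodes a membrane metalloprotease, had 0.34, 3.66 and 2.47 in WT and 0.337, 0.295 and 0.368 in KO. *Inka2* had 3.35, 9.43 and 9.61 in WT and 3.15, 3.02 and 2.57 in KO and *I830077J02Rik* had 1.96, 8.41 and 7.35 in WT and 1.51, 1.94 and 2.21 in KO. *Mir7015* was listed at 0, 1.51 and 1.8 in WT and 0, 0 and 0 in KO, which rests on 3 reads in each of WT replicates 2 and 3, and, like *Stc2* and *Mmp14*, it passed the filter only through these libraries. It lies inside the gene *Smap2*, and without a stated strand or overlap rule its reads cannot be told apart from those of *Smap2*.

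The identity of the cells was read from marker lists. All 10 B-cell markers had an FPKM of at least 0.5 in every library, with a sum of 4055, 3172 and 3238 in WT and 3189.8, 4283 and 3291 in KO. The most abundant was *Cd79a*, the locus from which cre is expressed, at 1203, 739 and 779 in WT and 498, 1074 and 611 in KO. KO replicates 1 and 3 were the lowest libraries, while KO replicate 2 lay within the WT range, as it did in *Ankrd37*. The bearing of this on the genotype of KO replicate 2 was not tested. The plasma cell markers summed to 1495, 1013 and 959.9 in WT and 1438, 1074 and 1838 in KO, led by *Mzb1* at 691, 509.5 and 494 in WT and 665, 494 and 826 in KO, and 8 of the 9 were at or above 0.5. WT replicates 2 and 3 had lower plasma cell sums than the other libraries, and the part of this in the results was not tested.

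The macrophage and monocyte markers summed to 2231, 1441 and 1374 in WT and 1869, 1652 and 3139 in KO. *Apoe* made most of this sum, at 1953, 1091 and 1092 in WT and 1614, 1414 and 2837 in KO, while *Csf1r* (0.176, 0.754 and 0.521 in WT and 0.0466, 0.0747 and 0.172 in KO) and *Cd14* (0.0171, 1.05 and 0.343 in WT and 0.0508, 0.0555 and 0.192 in KO) were low, and highest in WT replicates 2 and 3. Not all other markers were low, since *Fcer1g* had 151, 131 and 125 in WT and 140.1, 115 and 176 in KO and *Adgre1*, which encodes F4/80, had 59.8, 91.1 and 81.1 in WT and 67.7, 69.7 and 55.5 in KO. Of the 16 markers, 10, 15 and 13 were at or above 0.5 in WT and 10 in each KO library. *Lyz2*, chosen after its values were seen, had 6.18, 58.3 and 26.2 in WT and 0.60, 2.23 and 3.7 in KO, so WT replicates 2 and 3 held the most of it, and its part in the results was not tested.

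The neutrophil markers summed to 43.5, 0.606 and 0.226 in WT and 0, 0.249 and 0.0324 in KO, so nearly all of them lay in WT replicate 1. Of 11 markers, 6 were at or above 0.5 in WT replicate 1 and 0 in every other library. *S100a9* led at 19.9, 0 and 0 in WT and 0, 0 and 0 in KO, while *Ly6g* was at 0.0841, 0.0506 and 0 in WT and 0, 0.182 and 0 in KO and *Cxcr2* at 0.102, 0 and 0 in WT and 0, 0 and 0 in KO. The part of these transcripts in the place of WT replicate 1 was not tested.

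The dendritic cell markers summed to 23.0, 17.3 and 18.9 in WT and 18.8, 14.5 and 21.2 in KO, led by *Flt3* at 6.31, 6.55 and 7.74 in WT and 6.94, 6.23 and 4.74 in KO, with *Clec9a* at 0.0589, 0 and 0 in WT and 0, 0 and 0 in KO. Of 8 markers, 5, 5 and 6 were at or above 0.5 in WT and 6, 5 and 5 in KO. The T and NK cell markers summed to 133, 97.6 and 91.5 in WT and 138, 135 and 138 in KO, nearly all of it *Lck* at 131, 96.2 and 90.1 in WT and 137, 133 and 136 in KO. *Cd3e* was at 0.0561, 0.0675 and 0.134 in WT and 0.0278, 0 and 0.0699 in KO and *Gzma* was at 0 in all 6 libraries, and of the 12 markers 1, 1 and 2 were at or above 0.5 in WT and 2 in each KO library.

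The erythroid and stromal markers summed to 87.4, 101.8 and 96.0 in WT and 84.6, 103.2 and 79.5 in KO, led by the endothelial and leukocyte marker *Pecam1* at 83.7, 85.1 and 81.7 in WT and 81.2, 97.7 and 76 in KO. Of 10 markers, 4, 5 and 6 were at or above 0.5 in WT and 4, 3 and 4 in KO, with *Col3a1* at 0, 0.0536 and 0.0852 in WT and 0, 0.0322 and 0 in KO. The hemoglobin gene *Hbb-bs*, chosen after its values were seen, had an FPKM of 0.511, 8.05 and 5.6 in WT and 0.829, 0.353 and 0.637 in KO. It was highest in WT replicates 2 and 3, and its part in the results was not tested.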

How the data were processed

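The bulk RNA-seq libraries, 3 WT and 3 KO, were grouped by their sample titles. The authors deposited FPKM values, made from filtered reads with TopHat (alignment to mm10) and HTSeq (counts per gene). Annotation release, strand option and treatment of multiple alignments are not given in the sources used here, so overlapping genes and near-identical copies are uncertain. GENCODE vM21 held 46488 of the 46983 gene IDs.

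Library depth was recovered from the steps of the FPKM values. All 25717 genes above 0 gave whole reads in every library within 0.02 reads, with 99.9% of the depth recovered. Of these, 9302 had the exon length of GENCODE, and for the others the smallest fitting length was taken. Depth was 25.0 to 37.2 M reads.

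Genes averaging 0.5 FPKM or more were tested in R 4.3.3 with limma 3.58.1 on log2(FPKM + 1), with a mean-variance trend, no covariate and two-sided Benjamini-Hochberg adjusted p under 0.05. The method was tested on simulated data. Other steps ran in Python 3.11.15 (numpy 2.4.6, pandas 2.3.3), and matplotlib 3.10.9 drew the plots. The 10 genes and the lists were chosen with earlier results of these data known. Named from each list were up to 4 genes of highest mean FPKM and up to 2 of largest fold change, with all eIF2α kinases and relatives, the most abundant gene of each marker list and markers at or near 0, *Hif1a*, and the 10 genes of most similar profile. Some genes that this rule names are not reported here. Alternatives were another pseudocount, other filters, median-ratio scaling, quantile normalization, no trend, a replicate block, voom on recovered reads and each library left out.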

Additional observations from a re-analysis of the deposited data

How the results depend on the processing

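The median log2 fold change of the 10 genes was -0.78 and ranged from -1.14 (without WT replicate 1) to -0.60 when 1 library was left out. It was -1.06 with voom on recovered reads, -0.77 after quantile normalization and -0.73 after median-ratio scaling, while the filters, the trend and the block leave these values as they are by construction. No alternative reversed a direction among the 10 genes. That of *Vldlr*, the least abundant, was -0.36, and it was -0.92 with a pseudocount of 0.1 and -1.04 with voom. The count of genes called by limma was 0 in every alternative that kept all 6 libraries, and from 0 to 1251 when 1 library was left out, where 1251 was without WT replicate 1 and 1 was without KO replicate 1. With 1 library left out, the called genes ranged from 0 to 3 of the 18 tested for eIF2α kinases and their regulators. The range was 0 to 6 of 16 for partners of ATF4 and 0 to 2 of 9 for relatives. It was 0 to 11 of 11 for amino acid synthesis and 0 to 7 of 11 for amino acid transporters. For tRNA synthetases it was 0 to 12 of 13, and for other stress targets 0 to 9 of 18. For the ATF6 and XBP1 branch it was 0 to 1 of 21, and for HIF-1 targets 0 to 4 of 16. Of all genes tested, 5.75% were called lower and 3.64% higher in KO without WT replicate 1. The highest count of each list was without WT replicate 1, which was singled out by its values, so these counts support nothing, and the cause was not tested.

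With the replicate block, limma called 0 genes. The deviations of same-numbered libraries from their group means correlated across genes at -0.10, 0.14 and -0.28 for numbers 1, 2 and 3. Libraries of different numbers gave -0.20 to 0.30. With 3 libraries per group, these values cannot settle whether the numbers pair the libraries. Low values rest on few reads, as for *Vldlr*.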
